A study of Mus musculus with 12 samples.

Results

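The comparison set 3 mouse ependymomas with added human ETV5 against 3 with added human NPY, 6 of the 12 samples of the series, chosen by the genotype in their labels. All 6 tumours, and the 3 control tumours that are given beside them, carried the ZFTA-RELA fusion as the tumour driver. The control tumours had the genotype ZFTA-RELA alone, the ETV5 tumours had ZFTA-RELA with overexpression of the human variant of ETV5, and the NPY tumours had ZFTA-RELA with overexpression of the human variant of NPY. The 3 remaining samples were wild-type cortex without tumour, and they serve here only to measure how much cortical RNA a tumour library held. The labels name no strain, age, vector or promoter, and they do not say whether the replicates were separate animals. The p-values therefore measure the spread between these samples, which may be technical in part. Polyadenylated RNA was sequenced as paired ends after 300 ng of total RNA from each sample had gone into a stranded library.

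ZFTA-RELA joins a zinc finger protein to RELA, the transcription activating subunit of NF-kB, and it drives ependymomas of the forebrain. ETV5 is an ETS transcription factor of the PEA3 subfamily, whose other members are ETV1 and ETV4. These factors act downstream of fibroblast growth factor receptors and the kinase ERK, and ERK signalling switches on both the PEA3 genes and a set of its own inhibitors, the Sprouty, Spred and dual-specificity phosphatase genes. NPY is a secreted peptide of cortical interneurons, cut from a precursor by prohormone convertases and sensed by G protein-coupled receptors. The series is titled for serotonylation of histones, the attachment of serotonin to a histone by the enzyme transglutaminase 2. The comparison bears on whether tumours with the transcription factor and tumours with the peptide precursor ended in different expression states.

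Both added genes were of human sequence and the reads were counted at mouse genes, so neither can be measured on its own here, and the groups are named by their labels. Whether reads of the human genes aligned to mouse Etv5 or Npy was not tested. Depth was 6691146 to 11291057 reads in the ETV5 libraries, 8214523 to 10481943 in the NPY libraries and 6266613 to 9443466 in the controls. The fusion partners had similar read totals in both groups: mouse Rela gave 2545 reads over the ETV5 libraries and 2358 over the NPY libraries, and the mouse Zfta gene (2700081O15Rik in the tables) gave 9330 and 8789. Reads of the fusion and of the native mouse genes were not told apart, so these totals do not measure the fusion. Igf2 and Ccnd1, 2 genes typical of ZFTA-RELA tumours, gave 149514 and 21554 reads in ETV5, 129252 and 19582 in NPY, and 3139 and 946 over the 3 cortex libraries. The ETV5 libraries were not alike. The share of cortical RNA, measured as the median level of cortical excitatory neuron genes relative to cortex, was 0.878, 8.43 and 2.74% in ETV5 replicates 1, 2 and 3, 0.80, 1.29 and 0.75% in NPY replicates 1, 2 and 3, and 6.55, 7.99 and 15.8% in the controls. On the first principal component of the 9 tumour libraries (33.9% of the variance) ETV5 replicate 1 lay at -43.8, among the NPY libraries (-60.3 to -39.2), and ETV5 replicate 2 lay at 54.5, among the controls (36.5 to 58.3). Library codes began with DS for the controls and ETV5 replicates 1 and 2, and with EC for ETV5 replicate 3 and all NPY libraries, and the labels do not say what the letters stand for. Rn45s, the ribosomal RNA precursor, stood between 1038 and 5527 in ETV5 and between 1501 and 6012 in NPY, against 618 to 736 in controls. Xist, the RNA of the inactive X chromosome, stood at 399.6 to 644 in ETV5 replicate 1 and NPY replicates 2 and 3, where Ddx3y of the Y chromosome stood at 0, and it stood below 1 in the other 3 libraries, where Ddx3y stood at 100.1 to 125. Each group thus held material of both sexes, and so of more than 1 animal.

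Levels are given as rescaled CPM, read counts brought to a common scale over the tumour libraries and given as CPM of a library of average size. Log2 fold changes are ETV5 minus NPY on the log2(value + 1) scale, with 3 libraries a group. By limma with Benjamini-Hochberg adjustment, 1 of 14648 genes tested passed an adjusted p of 0.05 (0.00683% called), and it was lower in ETV5. For genes higher in ETV5 the count was 0 by limma, 0 by edgeR and 135 by DESeq2, and for genes lower it was 1, 0 and 37. Without adjustment, 1357 genes (9.26%) had a limma p under 0.05. The lowest ETV5 library lay above the highest NPY library for 895 genes (6.11%), and the highest ETV5 library lay below the lowest NPY library for 983 (6.71%). Scaled only to each library's total reads, these became 1132 (7.73%) and 726 (4.96%). Positive fold changes made up 48.6% of all genes, and the median was -0.01. All lists of genes below are to be read against these shares.

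Ifi44l, a gene that interferon induces in many cell types, was the gene that passed. Its levels were 0, 0 and 0.0889 in ETV5 replicates 1, 2 and 3 and 11.4, 22.7 and 17.0 in NPY replicates 1, 2 and 3. Every NPY library held the transcript and 2 of 3 ETV5 libraries held none. Summed over libraries, ETV5 had 1 read and NPY 443, a ratio at equal depth of 421 for NPY over ETV5 (exact 95% interval 75.2 to 16671, counting error only), while the control tumours and the cortex had 0 reads each. The log2 fold change was -6.85 (SE 0.54, adjusted p = 0.00869 by limma). With 1 read in ETV5 its size depends on the constant added before the log. It was -7.67 with 0.5 added, -4.77 with 5 added and -8.64 by DESeq2. Of all genes tested, Ifi44l alone had at most 3 reads in one group and at least 10 in each library of the other. In bulk tissue, fewer cells of a type and less RNA per cell cannot be told apart, here and for every gene below. The gene lies on chromosome 3 from 151758737 to 151762892, minus strand, protein coding, and the GENCODE M21 annotation of mm10 tags its model with an error of the reference genome. The call was lost by edgeR (adjusted p = 0.211) and with the 6 libraries fitted alone (adjusted p = 0.0828 by limma). It was also lost without NPY replicate 2 or 3 (adjusted p = 0.173 and 0.108 by limma). The log2 fold change in these fits was -8.33, -6.86, -6.63 and -6.79 in the same order. The contrast within the EC libraries sets ETV5 replicate 3 alone against the 3 NPY libraries, and its log2 fold change was -6.31.

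The other interferon genes overlapped between the groups. Ifi44, its neighbour in name and family, stood at 28.1, 78.1 and 54.3 in ETV5 and at 58.9, 83.6 and 63.9 in NPY. Isg15, a ubiquitin-like protein and a standard reporter of interferon action, stood at 83.0, 365 and 211 in ETV5 and at 73.6, 134 and 92.7 in NPY. Irf7, the transcription factor that amplifies the response, stood at 94.7, 291 and 181 in ETV5 and at 122, 253 and 176 in NPY. All 3 overlapped between the groups. Of 22 interferon response genes tested, 0 passed by limma, edgeR or DESeq2, 0 had a limma p under 0.05 and 0 had groups that did not overlap, 16 were positive, and the median log2 fold change was 0.24. The median without ETV5 replicate 2, the library of the 6 with the highest summed level of these genes, was -0.02. The promoters of both are printed to show how Ifi44l and Isg15 differ at the sequence that interferon-activated factors bind, both as the 250 bases before the start in RefSeq on GRCm38.p6, read 5′ to 3′ on the gene's own strand. Capitals mark the core of the interferon-stimulated response element, searched as GAAA repeated after a gap of any 2 bases, in Isg15 (chr4:156200819-156201068, minus strand), and the unit GAAA alone on either strand in Ifi44l (chr3:151762892-151763141, minus strand), where the whole element has no match.
Isg15: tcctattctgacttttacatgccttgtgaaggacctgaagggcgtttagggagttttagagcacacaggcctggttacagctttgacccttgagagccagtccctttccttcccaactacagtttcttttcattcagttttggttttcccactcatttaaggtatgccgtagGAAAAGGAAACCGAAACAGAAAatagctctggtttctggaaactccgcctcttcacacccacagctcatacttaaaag
Ifi44l: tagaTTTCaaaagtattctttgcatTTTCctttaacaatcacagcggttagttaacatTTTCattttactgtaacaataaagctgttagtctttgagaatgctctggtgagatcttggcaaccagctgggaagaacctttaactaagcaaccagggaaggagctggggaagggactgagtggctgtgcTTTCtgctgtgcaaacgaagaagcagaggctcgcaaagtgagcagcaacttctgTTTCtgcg
Isg15 held 3 overlapping matches, the nearest 56 bases before the start, and Ifi44l held 0 matches of the element and 5 of the unit. Searched on both strands, the element was in 10 of 16 promoters of tested interferon genes (62.5%), in 2.73% of the first promoters of all tested genes and in 2.98% of all 32851 promoters, while the unit, which the element contains, was in 86.4% of all. A match is a description of the letters, and its absence says only that they are not in this window.

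The PEA3 factors themselves had positive values in all 3 members tested, and 0 of 3 passed by limma, edgeR or DESeq2, though all 3 had an unadjusted limma p under 0.05. Mouse Etv5 (chromosome 16, 22381309 to 22439719, minus strand) stood at 409.6, 456 and 403 in ETV5, at 355, 340.3 and 257 in NPY and at 257, 322 and 287 in controls. The 3 ETV5 libraries lay above all others (log2 fold change 0.42, SE 0.16, limma adjusted p = 0.519). The part of reads from the added human ETV5 in these levels was not tested. Etv1 stood at 24.0, 81.7 and 40.3 in ETV5 and at 19.5, 23.5 and 19.2 in NPY, without overlap. Etv4 stood at 44.6, 66.4 and 58.1 in ETV5 and at 21.2, 54.9 and 24.8 in NPY, where NPY replicate 2 reached into the ETV5 range. Their summed level was 478 to 604 in ETV5, 301 to 419 in NPY and 333 to 376 in controls.

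Among feedback inhibitors and targets of ERK, 13 of 17 tested members were positive, and the median log2 fold change was 0.56, against 48.6% positive and -0.01 over all genes. By limma 0 passed and 8 had an unadjusted p under 0.05, edgeR called 0 and DESeq2 called 3. In 6 of 17 every ETV5 library lay above every NPY library, against 6.11% of all genes, and in 0 the reverse held. The 6 were Spry1, Spry2, Spry4, Spred1, Spred3 and Etv1, so each Sprouty gene of the list was among them, and members named here beyond the most abundant were chosen after their values were seen. Spry1, a Sprouty protein that blocks the path from receptor to RAS, stood at 18.3, 109 and 39.8 in ETV5, at 10.6, 10.3 and 13.6 in NPY and at 17.5, 16.1 and 16.8 in controls. Spry2 stood at 42.7, 100.5 and 46.1 in ETV5, at 24.5, 23.4 and 21.5 in NPY and at 33.6, 39.0 and 48.0 in controls. Spry4 stood at 89.4, 211 and 96.1 in ETV5, at 56.3, 87.1 and 54.7 in NPY and at 52.4, 53.4 and 57.5 in controls. In all 3 the top value was ETV5 replicate 2, and in Spry1 and Spry2 the NPY libraries were also below every control, whereas in Spry4 the controls lay with the 2 lower NPY libraries. The fold changes were 1.91 (SE 0.53) for Spry1, 1.33 (SE 0.31) for Spry2 and 0.92 (SE 0.33) for Spry4, each with a limma adjusted p of 0.516. Spred1, which inhibits RAS through the neurofibromin protein, stood at 192, 189 and 160.5 in ETV5, at 119.5, 126 and 117 in NPY and at 163, 179 and 193 in controls, so that the NPY libraries were the low ones of the 9. Its fold change was 0.57 (SE 0.13, limma adjusted p = 0.516).

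The 11 members whose groups overlapped included the phosphatases, Spred2 and Ccnd1. Dusp6, the phosphatase that removes the activating phosphates from ERK, stood at 106, 231 and 106 in ETV5 and at 76.8, 116 and 92.0 in NPY. Dusp4 stood at 85.9, 18.7 and 33.7 in ETV5 and at 49.5, 56.0 and 33.0 in NPY. Ccnd1, the cyclin that starts the cell cycle, stood at 712, 1219 and 683 in ETV5 and at 907, 702 and 665 in NPY. These 3 overlapped, and for Ccnd1 the 95% interval of the log2 fold change was -0.46 to 0.78. The list's median was 0.54 without ETV5 replicate 2, 0.74 without ETV5 replicate 1 and 0.62 for ETV5 replicate 3 alone against NPY. Spry2 (chr14:105896820-105897069, minus strand) and Spred1 (chr2:117120821-117121070, plus strand) are printed as the members with the smallest unadjusted p of the list, as 250 bases before the RefSeq start on GRCm38.p6, with the ETS core GGAA on either strand in capitals.
Spry2: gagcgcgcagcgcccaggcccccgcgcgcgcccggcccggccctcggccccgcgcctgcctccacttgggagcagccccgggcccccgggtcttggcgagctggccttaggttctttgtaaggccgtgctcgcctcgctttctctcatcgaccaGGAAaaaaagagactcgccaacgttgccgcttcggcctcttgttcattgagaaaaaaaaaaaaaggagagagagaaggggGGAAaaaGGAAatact
Spred1: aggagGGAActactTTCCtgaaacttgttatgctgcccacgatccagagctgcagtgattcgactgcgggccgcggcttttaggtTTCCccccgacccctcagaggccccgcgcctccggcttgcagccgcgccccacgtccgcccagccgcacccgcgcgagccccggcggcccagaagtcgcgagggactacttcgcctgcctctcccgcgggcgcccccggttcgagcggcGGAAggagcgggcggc
Spry2 held 3 matches and Spred1 held 4. The core was in 11 of 11 promoters found for this list and in 93.4% of all, and the longer ETS site CCGGAAGT, which contains the core, was in 0 of 11, in 5.46% of the first promoters of all tested genes and in 2.88% of all.

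**Figure D1:**
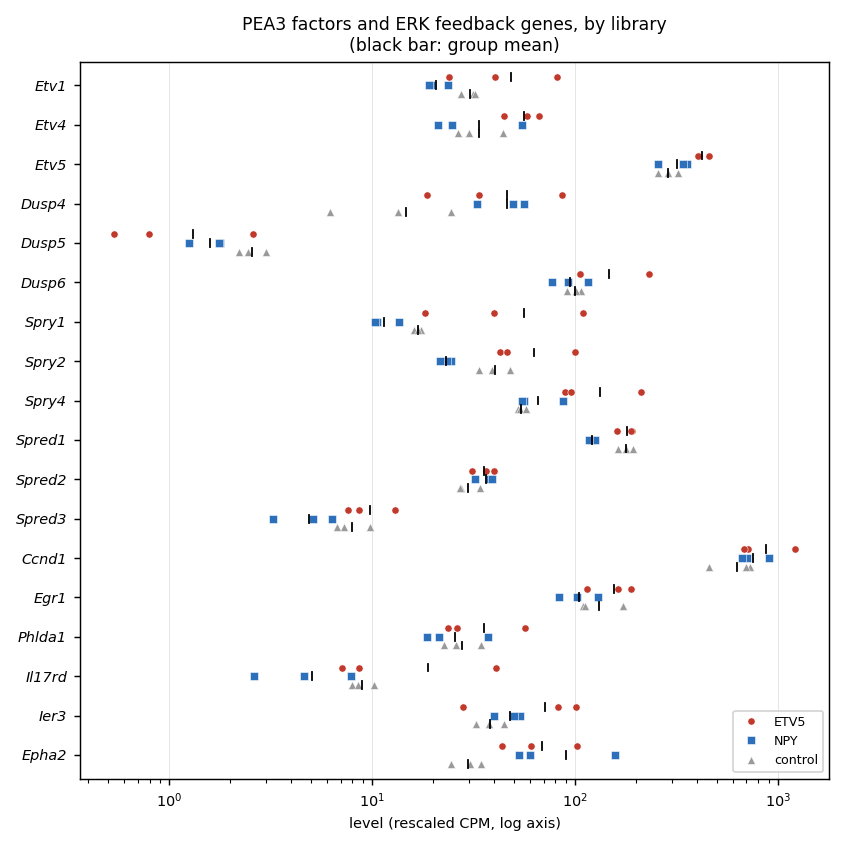
Levels of the 3 PEA3 factors and the tested ERK feedback genes in rescaled CPM on a log axis, 1 row a gene; red circles are ETV5, blue squares NPY and grey triangles control libraries, and black bars are group means. The Sprouty genes, Spred1 and Spred3 have all red points to the right of all blue ones, with Spry1 at 18.3 to 109 in ETV5 and 10.3 to 13.6 in NPY, while Dusp4, Ccnd1 and Epha2 overlap.

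The NPY system showed no common direction, with 4 of 8 tested members positive, a median log2 fold change of 0.15, 0 called by limma or edgeR, 3 with an unadjusted limma p under 0.05 and 1 called by DESeq2. Mouse Npy (chromosome 6, 49822710 to 49829507, plus strand) stood at 1.45, 17.8 and 4.71 in ETV5, at 5.74, 2.29 and 16.3 in NPY and at 26.6, 21.5 and 44.2 in controls. The 2 groups covered the same range, and every one of their libraries lay below the lowest control. The log2 fold change between them was -0.26 (SE 0.93, 95% interval -2.37 to 1.85). Npy1r, the main postsynaptic receptor, was the member with all ETV5 libraries below all NPY libraries, at 3.83, 3.45 and 3.11 against 6.86, 7.0 and 7.04, with controls at 6.51, 3.75 and 7.34. Its log2 fold change was -0.99 (SE 0.32, limma adjusted p = 0.516) on 88 reads in ETV5 and 182 in NPY. The other receptors were scarce: Npy2r stood at 0.264 to 1.15 in ETV5 and 0.255 to 0.499 in NPY, and Pyy, Npy4r, Npy5r and Npy6r were under the filter on low reads.

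Of the processing enzymes, Pcsk2, the convertase of mature neurons, stood at 1.85, 29.6 and 10.1 in ETV5 and at 1.75, 1.02 and 1.66 in NPY. Cpe, the carboxypeptidase that trims the cut peptides, stood at 1188, 1285 and 851 in ETV5, at 635, 379 and 838 in NPY and at 1047, 1349.7 and 1412 in controls. Both separated the groups, Pcsk2 by a narrow gap at ETV5 replicate 1 and Cpe by a narrow gap at ETV5 replicate 3. Pcsk1 and the amidating enzyme Pam overlapped. Other neuropeptide precursors were positive in 11 of 13 tested members (median 0.79), but 0 separated the groups and 0 passed by limma, edgeR or DESeq2, with 1 at an unadjusted limma p under 0.05. Chgb, a granin of secretory granules, stood at 1.58, 49.3 and 16.5 in ETV5 and at 3.62, 1.65 and 3.81 in NPY. Sst, the somatostatin precursor of interneurons, stood at 0.396, 15 and 3.56 in ETV5 and at 1.37, 0.255 and 2.44 in NPY. ETV5 replicate 2, whose cortical share was the highest of the 6, held the top value of both, and without it the list's median was 0.21. The part of cortical tissue in these values was not tested.

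Serotonin genes were positive in 8 of 10 tested members (median 0.41). The median was 0.90 without ETV5 replicate 1, 0.24 without ETV5 replicate 2 and 0.84 for ETV5 replicate 3 alone against NPY. Limma, edgeR and DESeq2 called 0, 3 had an unadjusted limma p under 0.05, and 13 further members were under the filter. Slc18a2, the vesicular transporter of monoamines, stood at 4.62, 5.89 and 4.36 in ETV5 and at 0.873, 3.18 and 1.47 in NPY. Maob, an oxidase that degrades monoamines, stood at 19.9, 13.9 and 17.3 in ETV5 and at 8.36, 3.56 and 12.4 in NPY. These 2 were the members whose groups did not overlap, and the log2 fold changes were 1.54 (SE 0.52) and 1.22 (SE 0.45). Tgm2, the enzyme of serotonylation named in the background above, stood at 511, 119 and 282 in ETV5, at 501, 489.6 and 734 in NPY and at 395, 498 and 366 in controls. ETV5 replicate 2 was the low library of all 9, ETV5 replicate 1 lay within the NPY range, and the log2 fold change was -1.13 (SE 0.46, limma adjusted p = 0.523). The synthesis genes were scarce: Tph2, the neuronal tryptophan hydroxylase, had 21 reads in ETV5 and 11 in NPY, and Tph1 was under the filter. Ddc, the decarboxylase of the second step, stood at 24.4, 4.31 and 15.7 in ETV5 and at 21.7, 18.2 and 14.5 in NPY.

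Proliferation genes leaned to lower values in ETV5 throughout. All 20 mitosis genes and all 20 DNA replication genes tested were negative, against 51.4% of all genes, with medians of -0.50 and -0.44. By limma 0 of either passed, 9 and 5 had an unadjusted p under 0.05, edgeR called 0, and DESeq2 called 1 mitosis gene and 0 replication genes. In 13 of 20 of each list every ETV5 library lay below every NPY library, against 6.71% of all genes, and with plain scaling to total reads in 11 and 9, against 4.96%. Members of each list are switched on together in dividing cells, so they are not independent of each other. Summed over the mitosis list, the level was 1645, 1450 and 1409 in ETV5 replicates 1, 2 and 3, 1979, 2533 and 1854 in NPY, and 1243, 1428 and 957 in controls. Summed over the replication list it was 1365, 1374 and 1325 in ETV5, 1764, 2133 and 1635 in NPY, and 1173, 1296 and 917 in controls. The ETV5 and NPY libraries did not overlap in either sum, NPY replicate 2 was the highest of the 9, and the ETV5 libraries lay above the control range except replicate 3 in the mitosis sum, which lay within it.

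**Figure D2:**
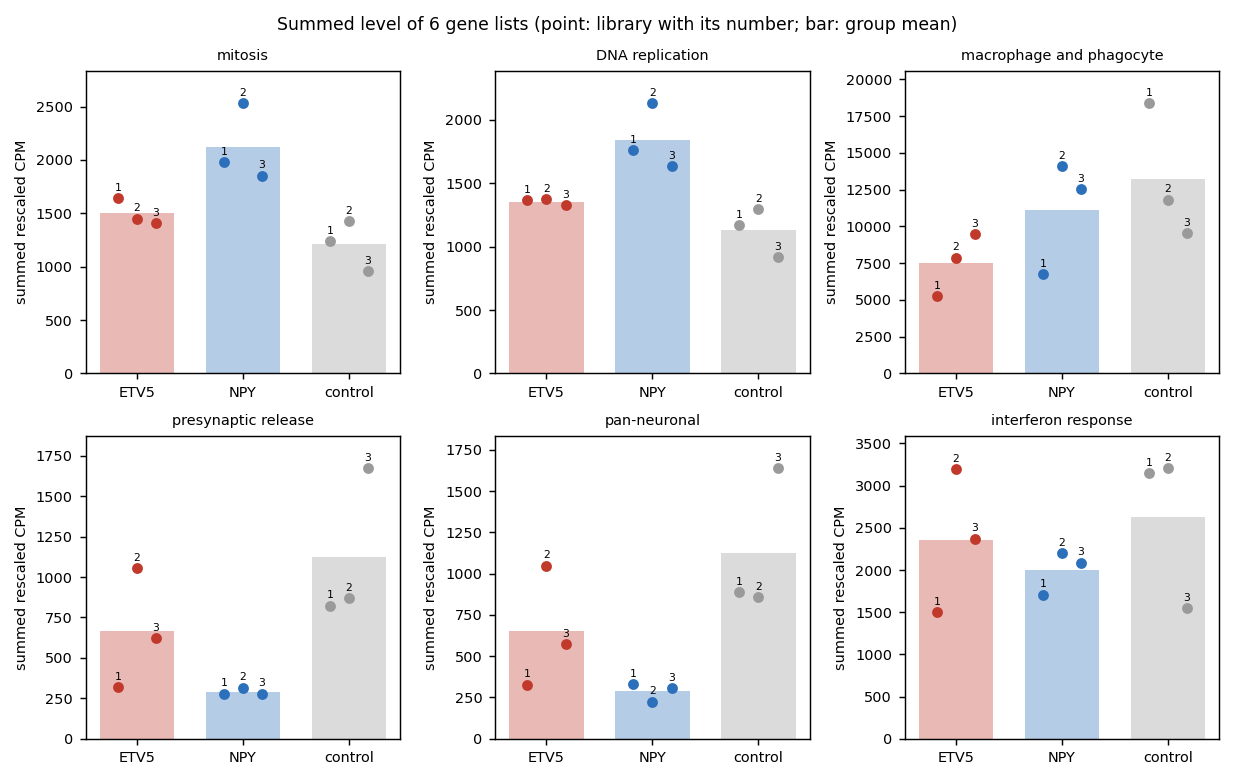
Summed level of 6 gene lists in rescaled CPM; points are libraries with their replicate number, bars are group means, and each axis starts at 0. In the mitosis and DNA replication panels all ETV5 points lie below all NPY points (at most 1645 against at least 1854, and at most 1374 against at least 1635), whereas the other panels overlap or, for presynaptic genes, are separated by 2 units between ETV5 replicate 1 and NPY replicate 2.

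Cdk1, the kinase that drives entry into mitosis, stood at 159, 121 and 133 in ETV5, at 189, 220.2 and 174 in NPY and at 121, 116 and 83.0 in controls. Top2a, the topoisomerase that untangles replicated DNA, stood at 237, 247 and 222 in ETV5, at 333, 439 and 291 in NPY and at 199, 215 and 129 in controls. Nusap1, a protein of spindle microtubules, stood at 45.4, 40.7 and 54.5 in ETV5, at 73.6, 84.9 and 64.2 in NPY and at 47.7, 46.2 and 39.0 in controls. In these 3 every NPY library was above every other tumour library. Their log2 fold changes were -0.50 (SE 0.19), -0.57 (SE 0.22) and -0.66 (SE 0.17), and the limma adjusted p-values lay between 0.516 and 0.519. Mki67, the usual marker of cycling cells, stood at 284, 286 and 173 in ETV5 and at 316, 336 and 284 in NPY, where the top ETV5 and the lowest NPY value met. Among replication genes, Pcna, the polymerase clamp, stood at 167, 198 and 223 in ETV5, at 266, 313 and 244 in NPY and at 162, 181 and 153 in controls. Gins2, a subunit of the replicative helicase, stood at 29.9, 14.8 and 27.8 in ETV5, at 39.4, 44.0 and 42.4 in NPY and at 20.3, 22.6 and 16.7 in controls. All 6 subunits of the Mcm2 to Mcm7 helicase were negative, and Mcm4 was the subunit whose groups overlapped.

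The direction of both lists was the same without any 1 of the 6 libraries: the mitosis median ranged from -0.60 to -0.40 and the replication median from -0.54 to -0.27, the weakest value in each being that without NPY replicate 2. Within the EC libraries, where ETV5 replicate 3 alone is set against NPY, the medians were -0.49 and -0.44. The G1 cyclins, kinases and inhibitors, which act before replication, showed no such shift, with 9 of 16 positive and a median of 0.03. In 1 of 16 every ETV5 library lay below every NPY library, against 6.71% of all genes. This was Ccne2, the cyclin that acts at the start of replication, at 6.46, 6.76 and 9.61 in ETV5 and at 11.4, 11.7 and 10.7 in NPY. The promoter of Cdk1 (chr10:69352913-69353162, minus strand) is printed for the mitosis list, again as 250 bases before the RefSeq start, with the cell cycle genes homology region TTTGAA, bound by the complex that times mitotic genes, in capitals.
Cdk1: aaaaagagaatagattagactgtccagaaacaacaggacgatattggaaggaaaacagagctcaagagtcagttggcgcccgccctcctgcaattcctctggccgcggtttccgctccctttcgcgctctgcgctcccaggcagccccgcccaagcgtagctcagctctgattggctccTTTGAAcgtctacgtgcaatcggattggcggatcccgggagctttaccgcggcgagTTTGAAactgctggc
It held 2 matches, the nearest 9 bases before the start. On both strands the element was in 7 of 17 promoters of mitosis genes (41.2%), in 2 of 16 of replication genes (12.5%), in 10.4% of the first promoters of all tested genes and in 16% of all promoters.

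Of 8 neuronal and synaptic lists, 6 had medians near or above 1. Pan-neuronal genes were positive in 16 of 16 (median 1.06), excitatory neuron genes in 12 of 14 (1.33), inhibitory neuron genes in 10 of 10 (1.35), presynaptic release genes in 19 of 19 (1.22), glutamate and GABA receptor genes in 23 of 25 (1.02) and synaptic adhesion genes in 19 of 23 (0.96). Ion channel genes were positive in 18 of 19 (0.77, and 0.35 without ETV5 replicate 2) and immature neuron genes in 8 of 9 (0.24, and 0.05 without ETV5 replicate 2), and limma, edgeR and DESeq2 called 0 of either, with 2 and 1 at an unadjusted limma p under 0.05. In each of the first 6 lists 0 members passed by limma or edgeR, while 5, 6, 2, 9, 8 and 11 had an unadjusted limma p under 0.05 and DESeq2 called 2, 5, 1, 4, 4 and 1. Snap25, a fusion protein of nerve terminals and a defining neuronal marker, stood at 5.01, 151 and 52.6 in ETV5, at 5.74, 4.58 and 7.62 in NPY and at 89.9, 98.5 and 298 in controls. Slc17a7, the glutamate transporter of cortical neurons, stood at 6.6, 110.3 and 27.1 in ETV5 and at 9.48, 3.69 and 5.38 in NPY. Both were high in ETV5 replicate 2, lower in replicate 3 and inside the NPY range in replicate 1, and both were lowest of the NPY libraries in replicate 2. The cortical share itself was computed from the excitatory neuron list, so it is no separate measure of these genes, and among the NPY libraries it was highest in replicate 2, where the pan-neuronal sum was lowest. The summed pan-neuronal level was 327, 1048 and 575 in ETV5, 330.3, 225 and 306 in NPY, and 856 to 1637 in controls. Without ETV5 replicate 2 the 6 medians were 0.64, 0.42, 0.44, 0.81, 0.66 and 0.68 in the order above, and without ETV5 replicate 1 they were 1.85, 2.18, 2.35, 1.64, 1.5 and 1.29. The part of cortical tissue in the result was not tested.

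Presynaptic and adhesion genes were the neuronal lists with the most members whose groups did not overlap. In 7 of 19 presynaptic and 7 of 23 adhesion genes every ETV5 library lay above every NPY library, against 6.11% of all genes, and in 0 of 16 pan-neuronal genes. Sv2a, a glycoprotein of synaptic vesicles, stood at 24.7, 37.8 and 21.4 in ETV5, at 5.99, 8.91 and 14.0 in NPY and at 37.6, 35.4 and 69.6 in controls. Vamp2, the vesicle partner of Snap25, stood at 55.8, 119.9 and 90.9 in ETV5, at 39.5, 41.0 and 41.1 in NPY and at 113, 94.8 and 150.4 in controls. Syp, the vesicle protein synaptophysin, stood at 19.4, 84.1 and 42.9 in ETV5, at 16.2, 6.24 and 18.0 in NPY and at 82.1, 77.4 and 144 in controls. In Sv2a the separation included ETV5 replicate 1, whereas in Syp that library cleared the NPY range by a narrow gap. Summed over the presynaptic list, ETV5 replicate 1 stood at 319 and NPY replicate 2 at 317. Whether cortical tissue made up a part of these values was not tested. The log2 fold changes were 1.57 (SE 0.38), 1.06 (SE 0.28) and 1.74 (SE 0.58), each with a limma adjusted p of 0.516. Nlgn2, a postsynaptic neuroligin of inhibitory synapses, stood at 30.5, 32.8 and 54.2 in ETV5 and at 17.6, 27.4 and 22.6 in NPY. Grin1, the shared subunit of NMDA receptors, went against the list at 85.6, 44.1 and 218 in ETV5 and 189, 144 and 89.0 in NPY.

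Transcription factors of the forebrain were positive in 15 of 17 tested members (median 0.81, and 0.59 without ETV5 replicate 2). By limma and edgeR 0 passed, 8 had an unadjusted limma p under 0.05, and DESeq2 called 1. Groups did not overlap in 5 of 17, all with ETV5 above NPY, against 6.11% of all genes, and Nr2f1, Nfia and Nfib were among them. Nfia, a factor that starts the formation of glia, stood at 57.0, 74.6 and 59.1 in ETV5, at 34.3, 14.1 and 37.6 in NPY and at 56.5, 58.7 and 68.2 in controls. Nfib, a factor of late neural progenitors and glia, stood at 129, 278 and 105 in ETV5, at 60.6, 48.2 and 65.9 in NPY and at 159, 83.9 and 110.2 in controls. Nr2f1, a nuclear receptor that patterns the cortex, stood at 8.44, 10.6 and 16.4 in ETV5, at 4.99, 2.42 and 6.16 in NPY and at 23.6, 18.4 and 15.9 in controls. In these 3 the NPY libraries lay below every ETV5 and every control library.

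Glial lists leaned the same way with more overlap. Astrocyte genes were positive in 14 of 15 (median 1.02, and 0.56 without ETV5 replicate 2). In 2 of 15 every ETV5 library lay above every NPY library, against 6.11% of all genes. By limma, edgeR or DESeq2 0 were called, and 5 had an unadjusted limma p under 0.05. Gfap, the intermediate filament of astrocytes, stood at 517, 2185 and 2045 in ETV5, at 308, 261 and 1057 in NPY and at 2538, 1746 and 1823 in controls, with ETV5 replicate 1 inside the NPY range. Radial glia genes were positive in 12 of 17 (median 0.41, and 0.12 without ETV5 replicate 2). Sox2, the neural stem cell factor, stood at 46.6, 119 and 51.6 in ETV5 and at 35.7, 29.9 and 20.6 in NPY, without overlap. Vim, the filament of radial glia and of many tumour cells, stood at 1373, 1316 and 1439 in ETV5 and at 1979.5, 1177 and 1673 in NPY, where the ETV5 values lay within the NPY range. Oligodendrocyte genes gave medians of 0.28 for precursors and 0.34 for myelin, with 0 of either list separating the groups, and the precursor median was -0.35 without ETV5 replicate 3. Foxj1, the regulator of motile cilia and a mark of ependymal cells, stood at 1.06, 7.91 and 2.94 in ETV5 and at 0.873, 0.382 and 4.69 in NPY.

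**Figure D3:**
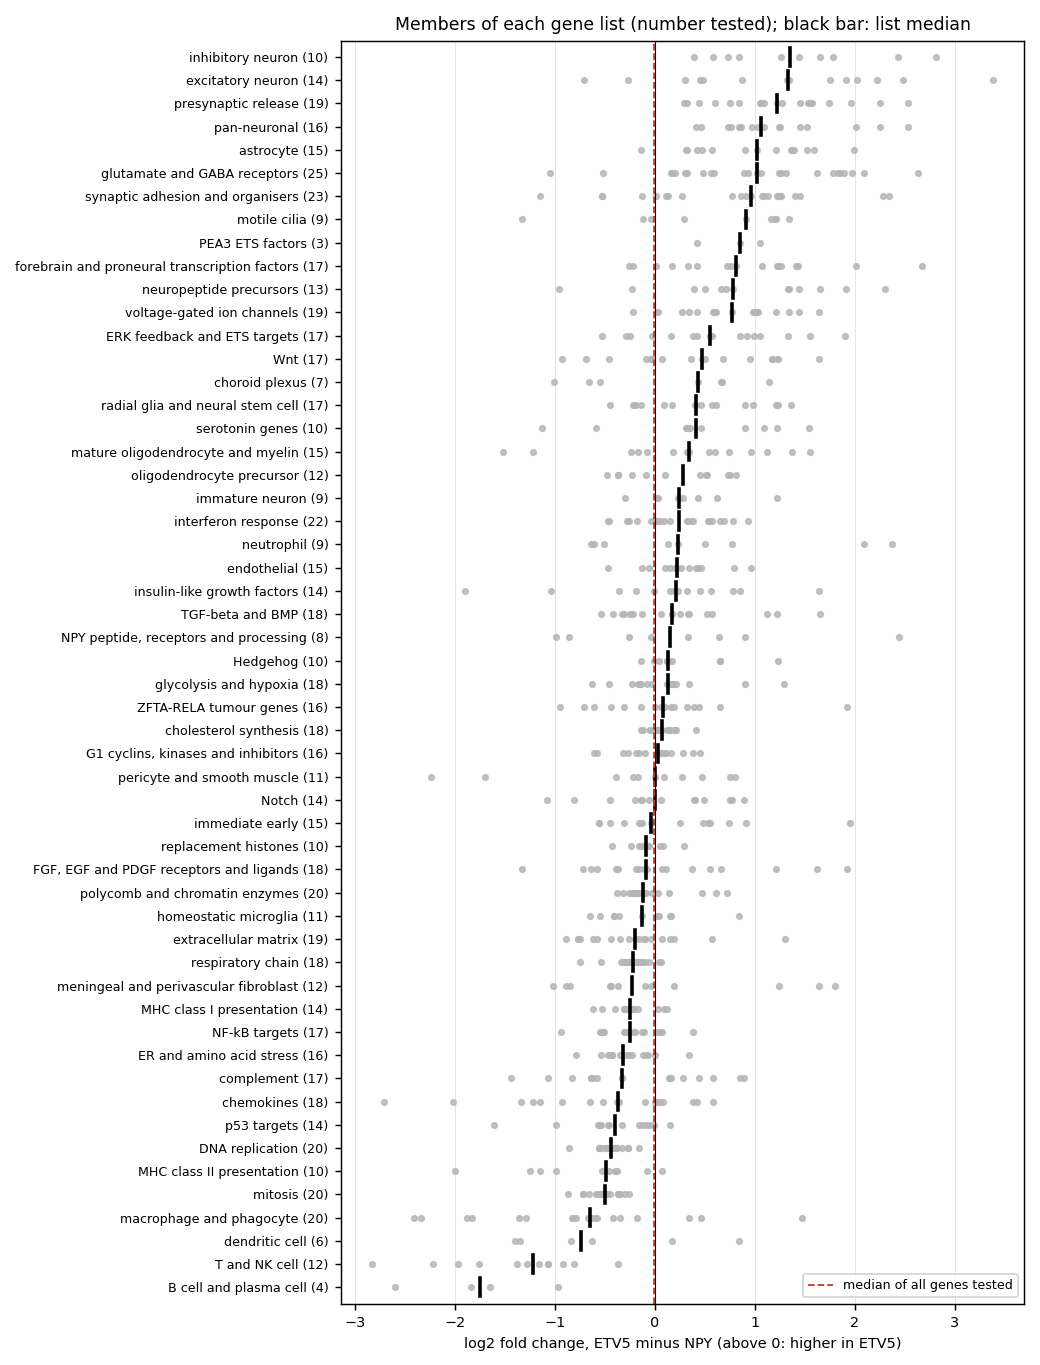
Log2 fold change (ETV5 minus NPY) of every tested member of each gene list, 1 row a list with the number tested in parentheses; grey points are genes, black bars list medians and the dashed line the median of all genes tested (-0.01). Pan-neuronal, excitatory, inhibitory, presynaptic, receptor, adhesion and astrocyte lists lie to the right, with medians of 0.96 to 1.35, ion channel genes lie at 0.77 and immature neuron genes at 0.24, and mitosis, DNA replication, macrophage, T cell and B cell lists to the left, with medians of -1.75 to -0.44.

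Immune lists lay mostly below 0. Macrophage genes were negative in 17 of 20 (median -0.65), T and NK cell genes in 12 of 12 (-1.22), B and plasma cell genes in 4 of 4 (-1.75) and MHC class II genes in 9 of 10 (-0.49), while homeostatic microglia genes were negative in 6 of 11 (-0.13). Neutrophil genes lay the other way, positive in 6 of 9 (0.23). Single libraries moved several of these medians: the macrophage median was -0.35 without ETV5 replicate 1, the B and plasma cell median -3.74 without NPY replicate 2 and -0.75 without NPY replicate 3, the MHC class II median -1.18 without NPY replicate 2 and -0.19 without ETV5 replicate 2, the microglia median -0.49 without NPY replicate 1 and 0.06 without NPY replicate 2, and the neutrophil median -0.53 without NPY replicate 1 and 1.08 without NPY replicate 2. Of the first 5 lists 0 members passed by limma or edgeR, 6, 2, 1, 0 and 0 had an unadjusted limma p under 0.05, and DESeq2 called 2 macrophage genes and 1 T cell gene. Groups did not overlap in 4 of 20, 4 of 12, 2 of 4, 0 of 10 and 0 of 11, all with ETV5 below NPY, against 6.71% of all genes. Lyz2, the lysozyme of infiltrating monocytes and macrophages, stood at 611, 202 and 677 in ETV5, at 972, 4599 and 2801 in NPY and at 2169, 1568 and 937 in controls. Mrc1, the mannose receptor of border macrophages, stood at 53.2, 12.5 and 23 in ETV5, at 75.3, 136 and 67.3 in NPY and at 107, 109 and 71.5 in controls. Ms4a7, a marker of macrophages that enter the brain, stood at 19.3, 7.62 and 31.9 in ETV5, at 46.4, 139 and 96.5 in NPY and at 78.2, 104 and 68.6 in controls. For Mrc1 and Ms4a7 the ETV5 libraries were the low group of the 3, with ETV5 replicate 2 lowest and NPY replicate 2 highest. The log2 fold changes of Lyz2, Mrc1 and Ms4a7 were -2.41 (SE 0.65), -1.83 (SE 0.49) and -2.34 (SE 0.54), each with a limma adjusted p of 0.516.

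Genes of resident microglia overlapped between the groups, and the microglia and macrophage lists were not tested against each other. Tmem119, a marker of resident microglia, stood at 251, 379 and 528 in ETV5 and at 216, 885 and 343 in NPY. The ETV5 values lay within the NPY range. The summed macrophage level was 5272, 7876 and 9490 in ETV5 and 6748, 14081 and 12543 in NPY, so ETV5 replicates 2 and 3 lay above NPY replicate 1. T cell transcripts were scarce in all libraries: summed over the list they stood at 6.6, 15.4 and 10.9 in ETV5, at 24.0, 40.0 and 32.7 in NPY and between 9.63 and 51.6 in controls. Cd4, the coreceptor of helper T cells, stood at 0.528, 1.58 and 1.42 in ETV5 and at 4.24, 18.8 and 7.23 in NPY, and the T cell receptor gene Cd3d reached at most 0.534 in ETV5 and 1.56 in NPY. The summed B and plasma cell level overlapped between the groups, at 93.3, 14.8 and 9.34 in ETV5 and at 216, 8.27 and 336 in NPY. Jchain, which joins secreted antibodies in plasma cells, stood at 5.94, 6.61 and 5.69 in ETV5 and at 126, 0.382 and 116 in NPY, high in NPY replicates 1 and 3 and near 0 in NPY replicate 2. Chemokine genes were negative in 12 of 18 (median -0.37, 0.04 without NPY replicate 2 and 0.32 for ETV5 replicate 3 alone against NPY). In 3 of 18 every ETV5 library lay below every NPY library, against 6.71% of all genes. By limma and edgeR 0 passed, 3 had an unadjusted limma p under 0.05, and DESeq2 called 1. Ccl8 was among the 3 without overlap, at 5.28, 3.45 and 5.07 in ETV5 and at 76.2, 8.65 and 41.4 in NPY.

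The median of ZFTA-RELA tumour genes lay near 0, and that of NF-kB targets lay below 0. Of 16 ZFTA-RELA tumour genes tested, 10 were positive, 0 separated the groups, and the median was 0.08. Igf2, the insulin-like growth factor that these tumours make in large amounts, stood at 5528, 5198 and 6355 in ETV5 and at 5695, 4856 and 4441 in NPY (log2 fold change 0.19, 95% interval -0.36 to 0.75). Nr5a1, a nuclear receptor at 0 reads in the cortex libraries, stood at 364, 53.9 and 274 in ETV5 and at 411, 270.1 and 347 in NPY, and Wt1, a zinc finger factor with 3 cortex reads, stood at 358, 50.3 and 126 in ETV5 and at 166, 231 and 148 in NPY. ETV5 replicate 2 was the lowest of the 6 in both. It also had the highest cortical share among the 6 (8.43%), and a link between share and level was not tested. NF-kB targets were negative in 13 of 17 (median -0.25). In 1 of 17 every ETV5 library lay below every NPY library, against 6.71% of all genes. Their median was -0.54 without NPY replicate 1 and 0.04 without NPY replicate 2. In neither list did limma, edgeR or DESeq2 call a member, with 1 and 0 at an unadjusted limma p under 0.05.

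Genes of metabolism and stress lay near 0 or slightly below. Respiratory chain genes were negative in 16 of 18 (median -0.22), amino acid and endoplasmic reticulum stress genes in 14 of 16 (-0.32) and p53 targets in 13 of 14 (-0.40). In 2, 1 and 3 of them every ETV5 library lay below every NPY library, against 6.71% of all genes. With plain scaling to total reads the counts were 2, 0 and 3, against 4.96%. Limma, edgeR and DESeq2 called 0 members of these lists, and 2, 1 and 2 had an unadjusted limma p under 0.05. Cox7c, a subunit of the terminal oxidase, stood at 288, 187 and 246 in ETV5, at 367, 305 and 367 in NPY and at 288, 250.1 and 283 in controls. Hspa5, the main chaperone of the endoplasmic reticulum, stood at 865, 669 and 960.1 in ETV5 and at 1112, 979.9 and 1288 in NPY, a separation that plain scaling to total reads did not keep. Cholesterol synthesis (median 0.07), glycolysis and hypoxia (0.13), Notch (0.00), Hedgehog (0.13) and the polycomb and chromatin enzymes (-0.12) had medians within 0.15 of 0. In 3 of 18 glycolysis and hypoxia genes every ETV5 library lay above every NPY library, against 6.11% of all genes. Among them was Car9, a carbonic anhydrase induced by hypoxia, at 23.3, 18.5 and 47.9 in ETV5 and at 15, 7.13 and 13.1 in NPY. Among growth factor genes, Hgf, the ligand of the Met receptor, stood at 1.32, 3.02 and 3.65 in ETV5 and at 7.36, 6.75 and 5.08 in NPY. Axin2, a feedback target of Wnt signalling, stood at 23.2, 78.5 and 18.7 in ETV5 and at 11.6, 15.8 and 14.5 in NPY. Every ETV5 library lay below every NPY library in 1 of 18 growth factor receptors and ligands (median -0.09), against 6.71% of all genes. In the Wnt list 1 of 17 had every ETV5 library above every NPY library (median 0.47), against 6.11%. Both counts were near the share of all genes.

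The 15 genes of each direction with the smallest unadjusted p among well-expressed genes whose groups did not overlap are described as values, since only Ifi44l passed. With ETV5 above NPY they were Dennd2a, Cxxc5, Mir703, Serpine2, Nbl1, Unc13b, Mfap4, Malat1, Ctxn1, Ntn1, Cntfr, Rasgrp2, Necab1, Dach1 and Mir684-1. Dennd2a, an exchange factor for Rab proteins of membrane traffic, stood at 48.5, 65.4 and 54.3 in ETV5, at 24.8, 26.9 and 24.0 in NPY and at 48.4, 45.2 and 44.0 in controls. Nbl1, a secreted antagonist of bone morphogenetic proteins, stood at 165, 140.3 and 169 in ETV5, at 52.9, 38.6 and 73.8 in NPY and at 149, 103 and 147 in controls. In both, as in Cxxc5, Mir703, Malat1 and Mir684-1, every control library lay above every NPY library. Mfap4, a protein of elastic matrix fibres, stood at 152, 364 and 460.4 in ETV5, at 13.5, 28.0 and 53.9 in NPY and at 256, 156 and 125 in controls. Its log2 fold change was 3.42 (SE 0.56, limma adjusted p = 0.296), the largest of the 15 after Necab1, a neuronal calcium-binding protein at 3.52 (SE 0.70). Ntn1, the secreted axon guidance protein netrin, stood at 42.1, 178 and 137 in ETV5, at 14.7, 16.9 and 15.7 in NPY and at 34.2, 23.6 and 33.9 in controls. In Ntn1 the ETV5 libraries were the high group of the 9, and the log2 fold change was 2.67 (SE 0.47, limma adjusted p = 0.341).

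With ETV5 below NPY they were Ifi44l, Alox15, Htatip2, Zfp385c, Batf, Abcc4, Wfdc17, Chp2, Piezo1, Rab7b, Tmem37, Ms4a7, Cd4, Slamf9 and Ska2. Alox15, a lipoxygenase of macrophages and eosinophils among other cells, stood at 11.3, 17.4 and 11.0 in ETV5, at 37.5, 47.2 and 29.4 in NPY and at 13.4, 11.7 and 11.2 in controls. Its log2 fold change was -1.52 (SE 0.25, limma adjusted p = 0.296), and the NPY libraries were the high group of the 9. Batf, a leucine zipper factor of lymphocytes and myeloid cells, stood at 5.80, 4.74 and 3.56 in ETV5, at 12.7, 14.1 and 16.8 in NPY and at 8.06, 14.5 and 11.8 in controls, so that ETV5 was the low group. Piezo1, a mechanically gated channel, stood at 58.8, 57.8 and 133 in ETV5, at 185, 288 and 214 in NPY and at 137, 182 and 117 in controls. Ska2, a kinetochore protein, stood at 26.5, 24.3 and 25.4 in ETV5, 37.7, 35.6 and 38.5 in NPY and 21.7, 21.7 and 21.6 in controls. Ms4a7, Cd4 and Slamf9 are carried by macrophages or other immune cells. List medians were -0.65 for macrophage, -1.22 for T and NK cell, -0.13 for microglia and 0.23 for neutrophil genes. The part of cell content in these 3 genes was not tested.

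**Figure D4:**
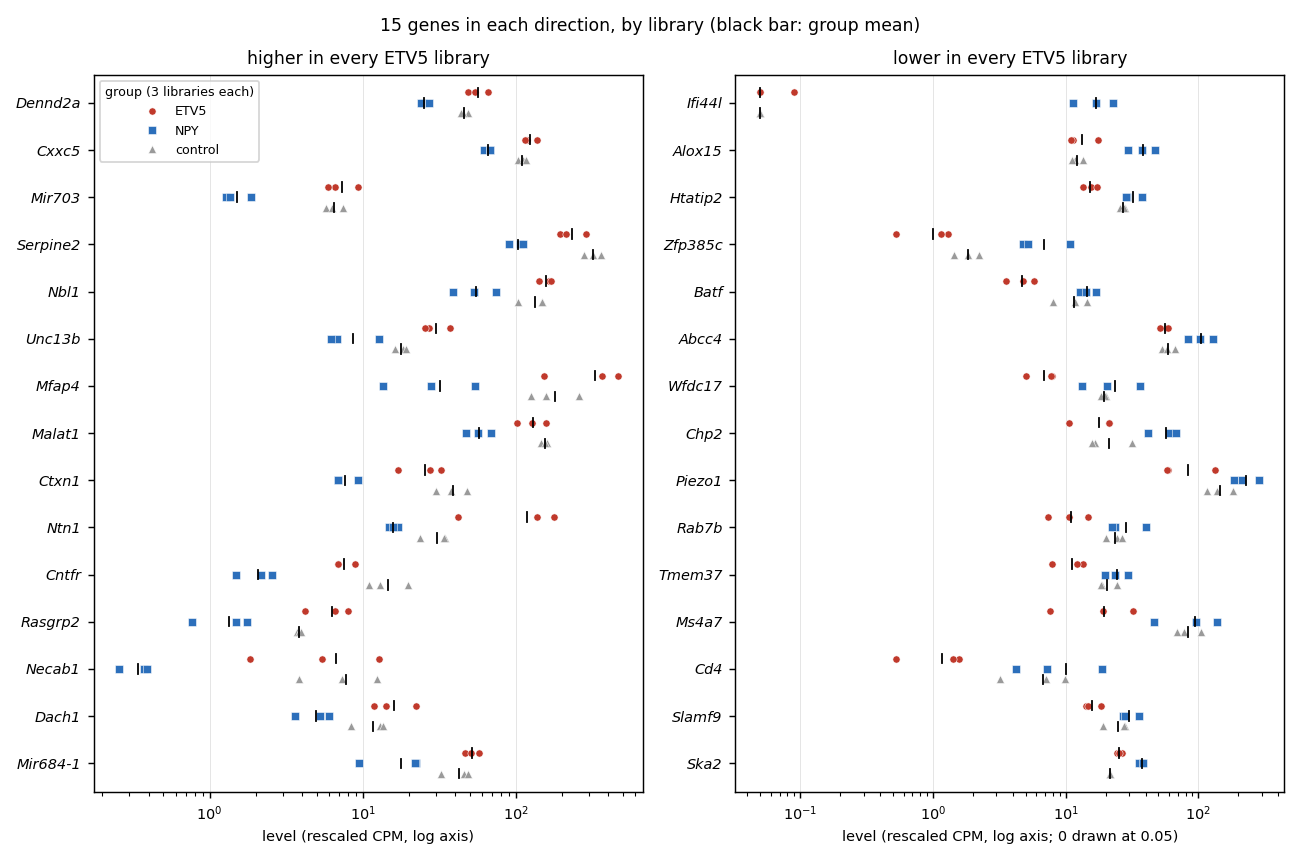
Levels of the 15 genes of each direction in rescaled CPM on log axes, 1 row a gene; red circles are ETV5, blue squares NPY and grey triangles control libraries, black bars are group means, and 0 is drawn at 0.05 in the right panel. Mfap4 shows a wide gap between ETV5 and NPY in the left panel (152 to 460.4 against 13.5 to 53.9), and Ifi44l is at 0 or 0.0889 in every library outside NPY.

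The small RNA genes among them need care. Polyadenylated libraries do not measure mature miRNAs, Mir703 overlaps Cfap299 on the opposite strand, and Mir684-1 overlaps Dusp19 and Nup35 on the opposite strand. Whether counting used the strand is not given in the sources used here, so reads of overlapping genes cannot be told apart. Mir703 stood at 9.23, 6.61 and 5.96 in ETV5, at 1.87, 1.27 and 1.37 in NPY and at 7.44, 5.73 and 6.27 in controls. Its mature sequence in RefSeq (chr5:98475616-98475636, minus strand, GRCm38.p6) is printed because the gene is the third of the 15 by unadjusted p, with the seed, bases 2 to 8, in capitals.
mmu-miR-703: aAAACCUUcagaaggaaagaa
Malat1, a long nuclear RNA, stood at 157, 127 and 101 in ETV5 and at 47.2, 68.9 and 56.6 in NPY, and Neat1, a nuclear RNA of paraspeckles, stood at 309, 247 and 171 in ETV5 and at 167, 90.0 and 143 in NPY. Both separated the groups, and both were high in the controls, at 146 to 159 and at 307 to 364.

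ETV5 replicate 1 bore on the count of calls more than any other library. Without it, limma called 86 genes higher in ETV5 (0.575% of 14950 tested) and 2 lower (0.0134%). The 2 lower genes were Ifi44l and Mrc1. Ntn1 had the smallest adjusted p of all (0.00629, log2 fold change 3.30), and Slc6a11, an astrocytic GABA transporter at 9.76, 121 and 110.5 in ETV5 and at 5.36, 4.20 and 9.97 in NPY, came next among the higher genes (adjusted p = 0.0250 by limma, log2 fold change 4.22). Among list members Spry1, Camk2a, Snap25, Nrgn, Vamp2, Nrxn2, Gabrb2 and Olig2 were called higher in that fit. Most of these are neuronal, and ETV5 replicates 2 and 3 alone had cortical shares above every NPY library (8.43 and 2.74% against at most 1.29%). The part of cortical tissue in these calls was not tested.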

How the data were processed

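The authors deposited 2 tables of 24421 genes, 1 with cortex, control and ETV5 libraries and 1 with control and NPY libraries. The deposited values were a normalized signal: within a library all values are integer multiples of the smallest unit, and dividing by that unit returned integers (tolerance 0.01 read) in 100% of cases, and the controls had the same reads in both tables. Per the submitters' processing notes, the tools were STAR 2.5.0a, DESeq2 1.30.1, FastQC 0.11.7 and MultiQC 1.6, and the build was mm10; the counting tool is not given in the sources used here. Spreadsheet dates replaced 27 gene symbols in each of them, and 2 symbols were duplicated.

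Groups came from the titles. Reads were joined by gene row and rescaled together, all 9 tumour libraries at once, by the median of ratios. Genes passed the edgeR filter (10 reads, 15 in total). The main test was limma 3.58.1 under R 4.3.3 on log2(value + 1), with robust empirical Bayes moderation along a trend in mean level, group as the term, two-sided, adjusted by Benjamini-Hochberg over all genes; the controls added to the estimate of the spread. Count tests on the recovered reads were edgeR 4.0.16 and DESeq2 1.42.0. On simulated data for this comparison with 14648 genes, limma recovered 11.6% of genes changed 2-fold, 74.6% of 4-fold and 92.4% of 8-fold changes. It made 3.8 false calls of 122.6 on average, and DESeq2 recovered 34.9, 91.3 and 97.0% with 42 false calls of 190.6. The changed genes were drawn from the more abundant genes alone, so these shares do not cover scarce genes. Differences shared by many genes of a library were not simulated.

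The members and the 58 gene lists were chosen with earlier results of these data known, so lists are described by counts and medians, without a set test. The genes named were Etv5, Npy, the PEA3 and NPY lists and the fusion partners; the 15 smallest unadjusted p-values in each direction among genes of at least 5 CPM whose groups did not overlap, without predicted symbols; and the 2 most abundant members of each list. Other members were named after their values were seen. The plain CPM scaling of levels was added after seeing the data. Positions are from GENCODE M21, in which 892 of 896 genes were found. Intervals of ratios are exact and cover counting error only.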

Additional observations from a re-analysis of the deposited data

How the results depend on the processing

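Of 23 alternatives, TMM scaling, CPM scaling, pseudocounts of 0.5 and 5, no filter, limma-voom and no robust moderation gave the same counts as reported, 0 genes higher and 1 lower. DESeq2 called 135 higher and 37 lower, with 328 adjusted p-values NA; 168 of its 172 calls had an unadjusted limma p under 0.05 and 141 had groups that did not overlap, and the cause of the difference was not tested. A filter at 50 reads, edgeR, the 6 libraries alone and the code prefix as a term each gave 0 lower genes. The adjusted p for Ifi44l, by limma apart from edgeR, was 0.518, 0.211, 0.0828 and 0.639 in that order. The log2 fold change was -6.85, -8.33, -6.86 and -6.31 against -6.85 as reported. The fit within the EC libraries kept all tumour libraries but set ETV5 replicate 3 alone against NPY, and it also gave -6.31. The replicate block also gave 0 lower genes (adjusted p = 0.169); same-numbered ETV5 and NPY libraries correlated at -0.40 to 0.27 after group means were removed, and libraries of other numbers at -0.43 to 0.49, so the numbers were not treated as pairs. Leaving out 1 library at a time gave 0 to 86 genes higher and 0 to 2 lower, with 86 and 2 without ETV5 replicate 1, 2 higher without NPY replicate 1, and 0 lower without NPY replicate 2 or 3. Of the 172 DESeq2 calls and the 88 limma calls without ETV5 replicate 1, 45 were shared (26.2 and 51.1%). Of 26 lists with a median at least 0.4 from 0, all but choroid plexus kept their sign in each of the 12 fits compared, and choroid plexus turned in 5 of them. The 12 are not separate checks, since the replicate block returned the reported medians. The code prefix as a term returned the medians of the fit within EC, and both of these fits are among the 5. Medians nearer 0 also changed sign, among them NF-kB targets (-0.25, and 0.11 within EC), the NPY system (0.15, and -0.19 within EC), oligodendrocyte precursors (0.28, and -0.35 without ETV5 replicate 3) and glycolysis and hypoxia (0.13, and -0.27 without NPY replicate 2). For named genes, 46 values passed under an alternative alone, 8 lost the call and 76 moved by more than the spread, as did 35 list medians. In the self-test at 3 libraries a group, limma recovered 11.6% of 2-fold and 74.6% of 4-fold changes in the more abundant genes. Sizes between these and changes in scarce genes were not simulated.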
